A study of Mus musculus with 16 samples.

Results

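The apolipoproteins and the lipid-loading machinery of primary mouse hepatocytes were examined in a bulk RNA-seq dataset of 16 libraries. The set comprised 10 of the 55450 genes quantified, chosen by name: the apolipoprotein genes Apoa1, Apoa2, Apoa4, Apoa5, Apob, Apoc1, Apoc3, Apoe and Apom, and Mttp, which encodes the large subunit of the microsomal triglyceride transfer protein. All 10 were found, and all 10 were among the 11675 genes that passed the filter on low values, a mean of at least 1 CPM (a gene's counts scaled to a fixed library total) over the 16 libraries. Hepatocytes were isolated from wild-type male C57BL/6J mice, stated in the methods to be 8 to 12 weeks old, by liberase perfusion and low-speed centrifugation, and were cultured overnight in DMEM with serum and an insulin, transferrin and selenium supplement. Medium alone defined the untreated group. The itaconate group received 10 mM sodium itaconate, the lipid group received a chemically defined lipid mixture diluted 10-fold, which supplies cholesterol together with saturated (stearic, palmitic, myristic) and unsaturated (oleic, linoleic, arachidonic) fatty acids, and the lipid + itaconate group received both agents. Each group had 4 libraries, carrying the replicate letters A to D. The labels do not say whether a letter stands for a mouse, a hepatocyte isolation or a culture. The test took the letter as a block, so its p-values measure the spread between these libraries that remains after differences between letters are removed. Serum and insulin were present in every group, and all values come from isolated cells in culture, with no lipoprotein or secretion measured here.

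Hepatocytes export triglyceride as very-low-density lipoprotein (VLDL). Apolipoprotein B is the structural protein of the particle, and the transfer protein encoded by Mttp adds lipid to it in the endoplasmic reticulum while it is being made. The smaller apolipoproteins are exchanged between particles in plasma: apolipoprotein A-I and A-II are the main proteins of high-density lipoprotein (HDL), apolipoprotein M binds sphingosine-1-phosphate on HDL, apolipoprotein E is a ligand for remnant receptors, apolipoprotein C-III slows the clearance of triglyceride and apolipoprotein A-V favours it. Itaconate is a metabolite that activated macrophages make from cis-aconitate by the enzyme Irg1 (Acod1), and the culture experiment asked how it acts on hepatocytes with and without a lipid load.

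The genes lie in part in clusters (GRCm38, GENCODE M21). Apoa1, Apoc3, Apoa4 and Apoa5 stand side by side at chr9:46228580-46271919, a stretch of 43340 bases, with Apoc3 on the minus strand and the others on the plus strand. Apoc1 and Apoe neighbour each other on the minus strand within 9708 bases of chromosome 7. Apoa2 lies on chromosome 1, Mttp on chromosome 3, Apob on chromosome 12 and Apom on chromosome 17. Apoa5 had among the largest rises with lipid, while Apoa2 and Apoe fell, and the bases ahead of their RefSeq start sites are printed for these genes because that window held no annotated exon. Capitals mark matches to the motifs searched, and no binding was measured.
Apoa5, plus strand, chr9:46268358-46268607: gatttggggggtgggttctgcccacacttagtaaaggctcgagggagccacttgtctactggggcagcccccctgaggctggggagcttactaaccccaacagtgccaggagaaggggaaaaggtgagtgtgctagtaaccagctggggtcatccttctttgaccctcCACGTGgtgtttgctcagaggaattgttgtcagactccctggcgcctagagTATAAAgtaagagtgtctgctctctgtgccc
Apoa2, plus strand, chr1:171224804-171225053: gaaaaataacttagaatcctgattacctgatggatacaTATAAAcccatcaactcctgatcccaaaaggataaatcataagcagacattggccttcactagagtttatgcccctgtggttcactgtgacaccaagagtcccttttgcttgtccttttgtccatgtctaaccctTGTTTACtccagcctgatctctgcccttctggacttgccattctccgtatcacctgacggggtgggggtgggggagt
Apoe, minus strand, chr7:19699189-19699438: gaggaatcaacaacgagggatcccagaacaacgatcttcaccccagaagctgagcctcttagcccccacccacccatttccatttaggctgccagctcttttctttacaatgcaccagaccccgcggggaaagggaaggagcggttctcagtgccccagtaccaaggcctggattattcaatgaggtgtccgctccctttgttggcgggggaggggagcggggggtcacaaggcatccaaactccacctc

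These are the 250 bases before the start in RefSeq's promoter table for GRCm38.p6, which held 8 of the 10 genes and lacked Apoc1 and Apoc3. The table lists 2 starts each for Apoa2 and Apoa5 and 3 for Apoe, and 1 window per gene is printed. On both strands, the letters TATAAA were searched for the basal promoter element (the Goldberg-Hogness box), AGGTCA for a nuclear receptor half-site, CAAAGTCCA for HNF4, TCACNCCAC for the sterol regulatory element, CACGTG for the E-box, TGTTTAC for FOXO factors and TGACGTCA for the cyclic AMP response element, together with the direct repeat of the half-site, whose matches also contain it. The printed Apoa5 window held TATAAA 31 bases and CACGTG 82 bases before the start. The printed Apoa2 window held TATAAA at 212 bases and TGTTTAC at 77 bases before its start, and the printed Apoe window held none of the motifs. Another Apoe window free of exons, chr7:19698622-19698871, held TATAAA 96 bases before its start and, on the opposite strand, at 100 bases. The other Apoa5 window overlaps the printed one and holds the same matches, and the other Apoa2 window, in which Tomm40l has an exon, held AGGTCA on the opposite strand. TATAAA was present in 12.4% of all 32851 windows of this length, CACGTG in 6.02% and TGTTTAC in 3.17%. The matches are descriptions of these letters only.

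The library totals ranged from 22346049 to 35512004 counts, and the lowest count of any of the 10 genes in any library was 1574, for Mttp. Mitochondrially encoded transcripts took between 3.27% and 6.01% of counts, the highest share being in the lipid + itaconate replicate C library. In that library 8 of the 10 genes had their lowest value of the group. The lipid + itaconate replicate B library stood further from its companions over all genes, with a chi-square per gene of 94.9 to 131 against them, where no pair without it exceeded 57.0. Without replicate B the test called 7 of the 10 genes with lipid, against 5 with all libraries, and 8 with lipid in the presence of itaconate, as with all libraries. Hepatocyte markers summed to between 49148 and 74349 CPM per library. Of the Kupffer cell and macrophage list, which summed to between 158 and 328 CPM, Cd68 supplied most, while Timd4 and Vsig4 averaged under the filter. Of its 8 genes tested, 5 fell with lipid (Adgre1 by 0.82, Cd5l by 0.81, Marco by 0.76, C1qa by 0.66 and C1qb by 0.44 on the log2 scale) and 7 fell with lipid in the presence of itaconate, at mean levels of at most 11.0 CPM, whereas Cd68 rose (0.43 and 0.58). The sum therefore moved opposite to most of its genes, from 181 to 293 CPM in untreated cells to 232 to 328 CPM with lipid, and from 158 to 245 CPM with itaconate to 214 to 319 CPM with both. The stellate cell list summed to at most 2.07 CPM and the endothelial list to at most 22.7 CPM. The cholangiocyte list came from Spp1 and Sox9, with Krt7 and Cftr at or near 0, and both Spp1 (-0.97 and -0.68) and Sox9 (-0.37 and -0.37) fell in the 2 lipid comparisons. The part of these markers in the changes of the 10 genes was not tested. CPM are shares of a library's counts, so fewer cells of a type and less RNA per cell cannot be told apart.

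The 10 genes together supplied 1.65% ± 0.0609 (SD, n = 4) of the counts in untreated cells, 1.69% ± 0.0812 with itaconate, 1.58% ± 0.0996 with lipid and 1.56% ± 0.140 with both. Apoe ranked 5 of 11675 genes by mean CPM over all libraries. To compare genes, CPM were divided by the length of the principal transcript in kilobases. On that scale the order in untreated cells was Apoe (5502 ± 166 CPM per kilobase, SD, n = 4), Apoa2 (4848 ± 218), Apoc1 (2205 ± 69.7), Apoa1 (2185 ± 490.3), Apoc3 (1002 ± 57.7), Apoa4 (303 ± 31.4), Apob (126 ± 7.23), Apom (104 ± 11.4), Apoa5 (36.8 ± 5.01) and Mttp (19.6 ± 0.803). Neighbours in this order did not overlap between libraries except Apoc1 with Apoa1 and Apob with Apom. The order of the means was the same in all 4 groups. With the summed length of all annotated exons as the divisor instead, Apoa2 passed Apoe and Apoa1 passed Apoc1, so the order among the top 4 depends on which transcripts are counted.

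**Figure D1:**
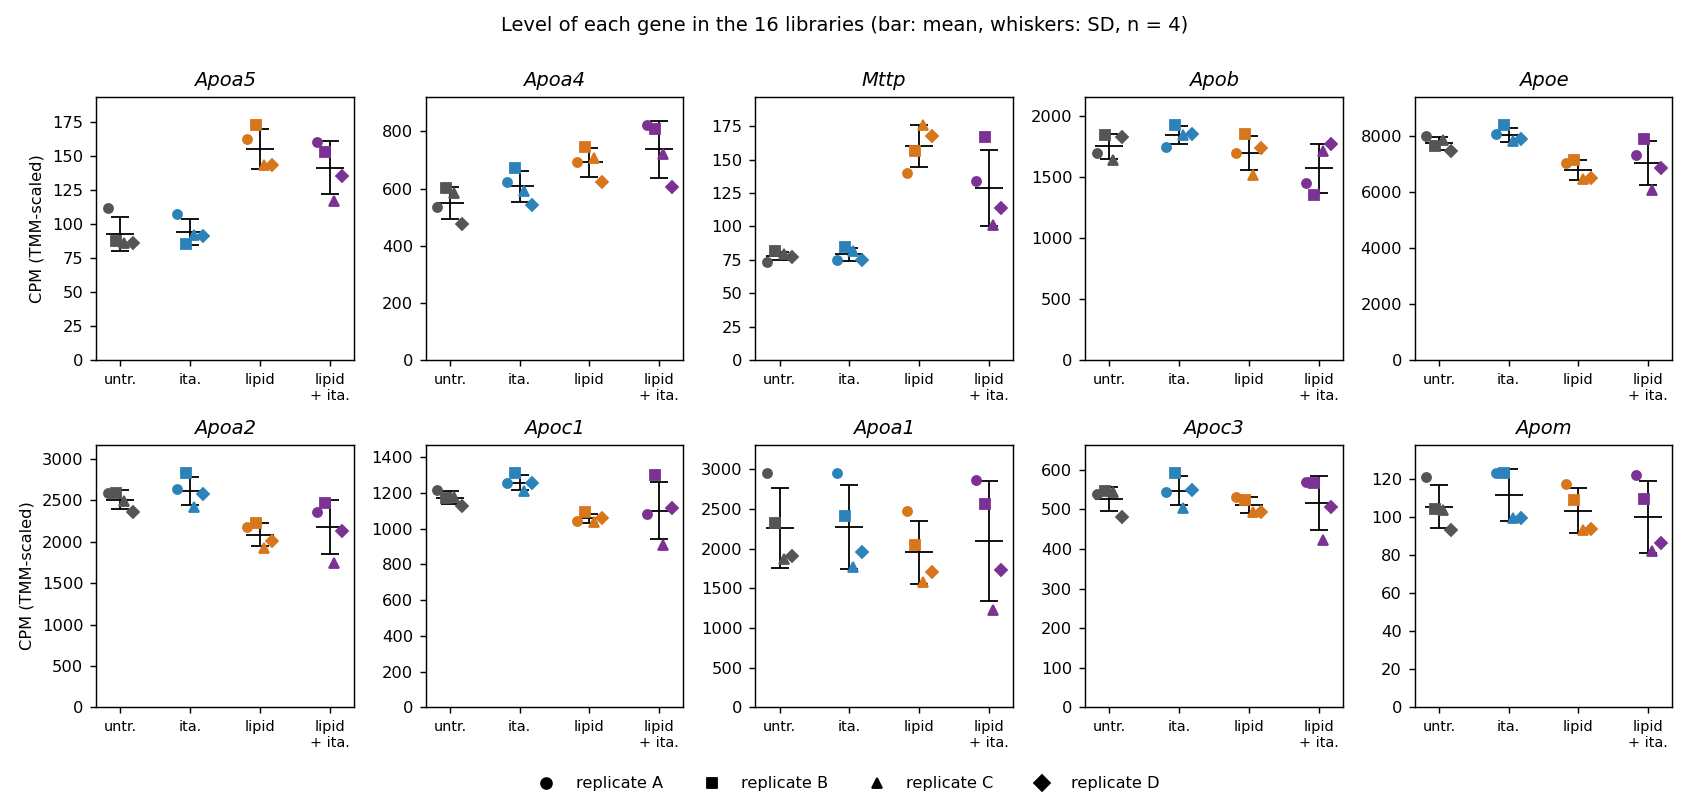
Level of the 10 genes in each library, in CPM after TMM scaling; symbols are the replicate letters, horizontal bars the group means and whiskers the SD (n = 4 per group). Mttp rose from 77.8 in untreated cells to 160 with lipid and Apoa5 from 92.6 to 155, while Apoa1 differed more between letters than between treatments.

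The comparison of lipid with untreated cells asks what a lipid load alone did. Mttp about doubled (2.06-fold), Apoa5 rose 1.68-fold and Apoa4 1.26-fold, whereas Apoa2 and Apoe fell by 17.1% and 12.6%, respectively. Of the 10 genes, 5 passed an adjusted p of 0.05 (3 higher and 2 lower), beside 47.5% of all genes tested, so the share called was near the background. The median log2 fold change of the 10 was -0.05, against 0.00 over all genes tested. In 6 of the 10 genes the groups did not overlap, against 32.5% of all genes tested.

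Mttp, the lipid-loading subunit, measured 73.7, 81.3, 79.1 and 77.2 CPM in untreated replicates A to D, and 140, 156, 176 and 168 CPM with lipid. Every lipid library was above every untreated library, and the log2 fold change was 1.04 (SE 0.10, adjusted p = 1.28e-06), with the letters between 0.92 and 1.15. Its partner Apob, the structural protein of VLDL, averaged 1751 ± 101 CPM in untreated cells and 1698 ± 140 CPM with lipid (SD, n = 4). The groups overlapped, and its log2 fold change of -0.04 had a 95% interval of -0.21 to 0.12 (adjusted p = 0.66). Part of Mttp overlaps the opposite-strand gene Trmt10a, whose counts reached at most 24.1% of Mttp's in a library. The kit marks strand, but the strand setting of the counting was not given in the sources used here, so reads of the overlap may not be separable.

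Among the triglyceride-related apolipoproteins, Apoa5 measured 112, 87.1, 86.0 and 85.8 CPM in untreated replicates A to D and 162, 172, 143 and 143 CPM with lipid. The groups were apart even though untreated replicate A was higher than its 3 companions, and the log2 fold change was 0.75 (SE 0.07, adjusted p = 6.55e-07). Apoa4, a lipid-binding apolipoprotein made by liver and intestine, measured 536, 602, 585 and 475 CPM in untreated cells and 692, 744, 706 and 623 CPM with lipid. It rose in all 4 letters (log2 fold change 0.33, SE 0.05, adjusted p = 7.69e-05). Apoc3, which lies between Apoa1 and Apoa4, did not pass the test, with 527 ± 30.4 CPM in untreated cells and 510.1 ± 19.8 CPM with lipid (log2 fold change -0.05, 95% interval -0.18 to 0.08). Antisense genes overlap Apoa4 and Apoa5, but their counts were at most 0.236% of those of the apolipoprotein gene.

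The HDL apolipoproteins were lower or near their untreated level. Apoa2 measured 2596, 2594, 2499 and 2356 CPM in untreated replicates A to D and 2180, 2222, 1931 and 2014 CPM with lipid. The ranges were separate, with a log2 fold change of -0.27 (SE 0.06, adjusted p = 0.00176). Apoa1 measured 2958, 2320, 1866 and 1904 CPM in untreated cells and 2472, 2049, 1583 and 1711 CPM with lipid. It was lower in all 4 letters, but the groups overlapped and the change missed the threshold (log2 fold change -0.21, SE 0.09, adjusted p = 0.0634). The Apoa1 call was made when untreated replicate B (-0.25, adjusted p = 0.0491), lipid replicate C (-0.26, adjusted p = 0.0456), or lipid + itaconate replicate B (-0.20, adjusted p = 0.0315) or C (-0.21, adjusted p = 0.00222) was left out. It was also made by DESeq2's Wald test (adjusted p = 0.0254), with no filter (adjusted p = 0.000651) and in the fit of only the 8 libraries compared (adjusted p = 0.00233). Apom averaged 106 ± 11.5 and 103 ± 11.8 CPM and did not pass (log2 fold change -0.03, 95% interval -0.15 to 0.08).

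Of the remnant apolipoproteins, Apoe measured 8003, 7644, 7866 and 7475 CPM in untreated replicates A to D and 7034, 7136, 6458 and 6489 CPM with lipid. The groups were apart, with a log2 fold change of -0.19 (SE 0.06, adjusted p = 0.00921). The Apoe call was lost with scaling by library totals alone (-0.11, adjusted p = 0.057) and in the fit without the replicate block (-0.19, adjusted p = 0.0589). Apoc1, carried by HDL and VLDL, went from 1173 ± 37.1 to 1059 ± 24.0 CPM with no overlap, yet missed the threshold (log2 fold change -0.15, SE 0.06, adjusted p = 0.0699). It was called without untreated replicate B (-0.19, adjusted p = 0.0382) and without lipid + itaconate replicate B (-0.14, adjusted p = 0.0312) or C (-0.15, adjusted p = 0.0142), and by DESeq2 (adjusted p = 0.0344), with no filter (adjusted p = 0.0335) and in the fit of 8 libraries (adjusted p = 0.0172). Of 10 hepatocyte markers 3 rose and 3 fell with lipid, beside 23.8% and 23.7% of all genes tested. Trf (log2 fold change 0.15), Ahsg (0.21) and Asgr1 (0.26) rose, while Alb (-0.18, adjusted p = 0.0142), Ttr (-0.20) and Fgb (-0.41) fell. The summed marker level was 50716 to 67977 CPM with lipid against 55690 to 74349 CPM without. The part of these shifts in the changes of Apoe and Apoa2 was not tested.

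**Figure D2:**
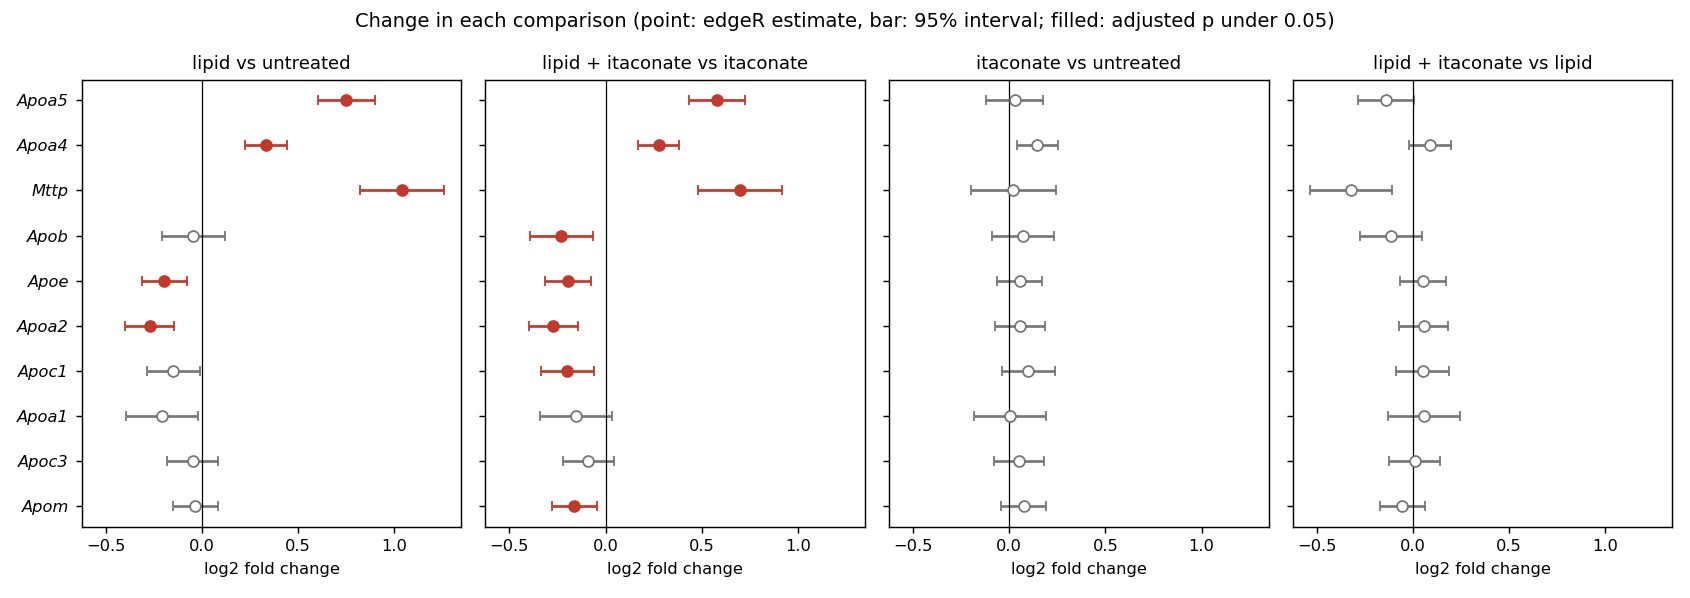
Log2 fold change of each gene in the 4 pairwise comparisons, with 95% intervals from the edgeR fit; filled points have an adjusted p under 0.05. Mttp, Apoa5 and Apoa4 lie to the right of 0 in both lipid comparisons, and no point is filled in the itaconate comparisons.

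The comparison of lipid + itaconate with itaconate measured the lipid change in cells that also received itaconate. Mttp (1.62-fold), Apoa5 (1.49-fold) and Apoa4 (1.21-fold) rose, and Apoa2, Apob, Apoc1, Apoe and Apom fell by between 10.6% and 17.1%. The test called 8 of the 10 genes (3 higher and 5 lower), beside 47.0% of all genes tested. Without the replicate block it called 5, the 3 higher and 2 of the lower genes. The median of the 10 was -0.16, against 0.00 over all genes. Only 2 of the 10 genes, Mttp and Apoa5, had groups that did not overlap, beside 31.4% of all genes, and the lipid + itaconate libraries were the more scattered group.

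Mttp measured 74.7, 84.6, 81.8 and 75.2 CPM in itaconate replicates A to D, and 134, 167, 101 and 114 CPM in lipid + itaconate replicates A to D. All of the latter were above all of the former, but replicate C rose least, and the letters ranged from 0.31 to 0.98 on the log2 scale (log2 fold change 0.70, SE 0.10, adjusted p = 6.35e-05). Apoa5 measured 107, 85.6, 92.1 and 91.4 CPM with itaconate and 160, 153, 117 and 135 CPM with both agents, again without overlap (log2 fold change 0.58, SE 0.07, adjusted p = 9.65e-06). Apoa4 went from 622, 673, 591 and 543 CPM to 821, 807, 719 and 604 CPM. Its groups overlapped across letters although it rose within each letter (log2 fold change 0.28, SE 0.05, adjusted p = 0.000449).

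Apoa2 measured 2633, 2834, 2418 and 2579 CPM with itaconate and 2361, 2475, 1747 and 2133 CPM with both (log2 fold change -0.27, SE 0.06, adjusted p = 0.00187). Apoe measured 8070, 8389, 7837 and 7901 CPM with itaconate and 7328, 7914, 6080 and 6861 CPM with both (log2 fold change -0.20, SE 0.06, adjusted p = 0.00912). Both genes were lower in 4 of 4 letters, with overlapping groups and the lowest value in lipid + itaconate replicate C. Apoe missed the threshold without the block (adjusted p = 0.0611) and when only the 8 libraries of the comparison were fitted (adjusted p = 0.0759). Apob measured 1744, 1923, 1846 and 1848 CPM with itaconate and 1451, 1350, 1710 and 1773 CPM with both, so that its fall lay mainly in replicates A and B (log2 fold change -0.23, SE 0.08, adjusted p = 0.0224).

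Several of these smaller falls rested on few libraries. Apob was not called without lipid + itaconate replicate A (-0.21, adjusted p = 0.0643) or B (-0.14, adjusted p = 0.0796), without itaconate replicate B (-0.22, adjusted p = 0.0634) or C (-0.21, adjusted p = 0.0693), or with scaling by library totals (-0.17, adjusted p = 0.124). Apoc1 (log2 fold change -0.20, adjusted p = 0.0202) was not called without itaconate replicate C (-0.18, adjusted p = 0.0609), without lipid + itaconate replicate C (-0.12, adjusted p = 0.0694) or without the replicate block (-0.19, adjusted p = 0.0699). Apom (log2 fold change -0.16, adjusted p = 0.0245) was not called without itaconate replicate B (-0.14, adjusted p = 0.0718) or D (-0.16, adjusted p = 0.0575), or without lipid + itaconate replicate C (-0.11, adjusted p = 0.0938) or D (-0.15, adjusted p = 0.0717). It was also not called without the replicate block (-0.15, adjusted p = 0.359) or with library totals (-0.11, adjusted p = 0.0982). Apoa1 (log2 fold change -0.15, adjusted p = 0.169) did not pass, but was called without lipid + itaconate replicate B (-0.25, adjusted p = 0.0206) and with no filter (adjusted p = 0.0152). Apoc3 did not pass (log2 fold change -0.09, 95% interval -0.22 to 0.04).

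**Figure D3:**
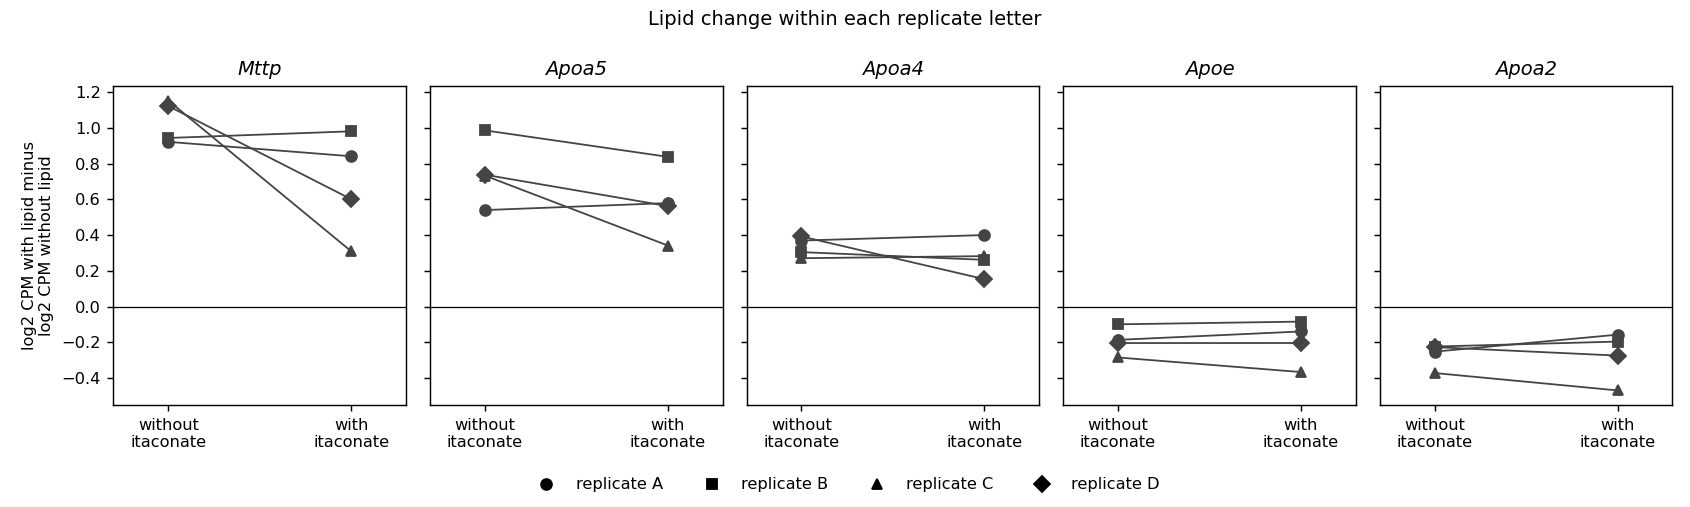
Lipid change within each replicate letter, as the difference in log2 CPM, without itaconate (left of each panel) and with it (right); each line joins the 2 differences of 1 letter. All letters lie above 0 for Mttp, Apoa5 and Apoa4 and below 0 for Apoe and Apoa2, and Mttp in replicate C drops from 1.15 to 0.31.

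The comparison of itaconate with untreated cells asked what itaconate did without a lipid load. None of the 10 genes passed edgeR's test, beside 4.91% of all genes tested. Of the 10, 1 gene, Apoa4, had an unadjusted p under 0.05, and the share of all genes under that unadjusted threshold was not counted. The largest estimate was that of Apoa4 (log2 fold change 0.15, SE 0.05, adjusted p = 0.109), with itaconate values of 543 to 673 CPM against 475 to 602 CPM in untreated cells. It was higher in 4 of 4 letters, the groups overlapped as in all 10 genes (7.53% of all genes tested did not overlap), and it was called by DESeq2's Wald test (adjusted p = 0.048), in the fit of only the 8 libraries (adjusted p = 0.0162) and without lipid + itaconate replicate A (0.15, adjusted p = 0.0487). All 10 estimates were above 0, between 0.00 and 0.15, with a median of 0.06 against 0.00 over all genes. With library totals alone those of Apoa1 (-0.02) and Mttp (-0.00) were below 0. The 95% interval of Mttp was -0.20 to 0.24, and that of Apob was -0.09 to 0.24.

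In lipid-treated cells, none of the 10 genes was called by edgeR's test between lipid + itaconate and lipid either, beside 2.58% of all genes tested. The groups overlapped in all 10, where 5.82% of all genes did not overlap. By unadjusted p, 1 gene, Mttp, was under 0.05, and the matching share of all genes was not counted. Mttp measured 140, 156, 176 and 168 CPM with lipid and 134, 167, 101 and 114 CPM with both agents. It was lower in 3 of 4 letters, by up to 0.79 on the log2 scale in replicate C, and higher in replicate B (log2 fold change -0.32, SE 0.10, adjusted p = 0.104). DESeq2's Wald test called it (adjusted p = 0.0286), as did scaling by library totals (-0.37, adjusted p = 0.0347), the fit with no filter (adjusted p = 5.85e-07) and the fit without lipid + itaconate replicate B (-0.44, adjusted p = 0.0262). Without lipid + itaconate replicate C the estimate was smaller (-0.19, adjusted p = 0.143), and without the replicate block the adjusted p was 0.371.

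Apoa5 was lower in 4 of 4 letters (log2 fold change -0.14, SE 0.07, adjusted p = 0.302), with overlapping groups. Apoa1 (log2 fold change 0.06) depended on single lipid + itaconate libraries. Without replicate C the estimate was 0.19 and passed (adjusted p = 0.0471), and without replicate B it was -0.04 (adjusted p = 0.87). Without lipid + itaconate replicate C, 6 of the 10 were below 0.05 before adjustment. The matching share of all genes was not counted, so that count cannot be read as a result about these genes. Calls also rose over all genes without that library, to 889 of 11679 tested, against 301 of 11675 in the main fit. The share of mitochondrially encoded transcripts in that library was 6.01%, against 3.99% to 4.97% in the other 3 of its group. Its part in these values was not tested.

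Whether itaconate altered the lipid change was tested by the interaction term, which called none of the 10 genes with edgeR's test, beside 0.00857% of all genes. The share of all genes with an unadjusted p under 0.05 was not counted, and of the 10 genes only Mttp was under it. Its lipid change was smaller with itaconate by 0.34 on the log2 scale (estimate -0.34, SE 0.14, 95% interval -0.65 to -0.04, unadjusted p = 0.0311, adjusted p = 0.532), and 3 of 4 letters were in that direction. The fit with no filter called Mttp (-0.35, adjusted p = 0.00136), but it called 231 of 25152 genes for the interaction, against 1 of 11675 in the main fit. Leaving out single libraries gave estimates for Mttp from -0.47 without lipid + itaconate replicate B to -0.22 without replicate C of that group. For Apoa5 the estimate was -0.17 (95% interval -0.38 to 0.04). The interaction uses the same untreated, itaconate, lipid and lipid + itaconate libraries as the pairwise comparisons and is not independent of them.

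Some of the genes differed more between replicate letters than between treatments. Apoa1 had geometric means over the 4 treatments of 2807 CPM in letter A, 2329 in B, 1592 in C and 1823 in D. This range of 0.82 on the log2 scale was wider than that of 96.7% of all genes tested, whose median range was 0.19. The clustered neighbours of Apoa1 spread less between letters, with ranges of 0.19 for Apoc3, 0.33 for Apoa4 and 0.31 for Apoa5. Apom had a range of 0.38, and Apob, at 0.13, the narrowest of the 10. The order of the letters for Apoa1, from A at the top through B and D to C, was the same in each of the 4 treatments.

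The members' profiles over the 16 libraries were compared with those of 8461 genes with at least 10 CPM, by the root mean square difference of centred log2 CPM. Apoe was most like Cox7c, at 0.0391, against its own SD of 0.130, and Apoc1 most like Pdcd10, at 0.0395 against 0.137. Apoa2 was nearest to Pccb (0.0479 against 0.181) and Apom to Serpinc1 (0.0553 against 0.182). Apob was nearest to 4932438A13Rik (0.0692 against 0.137) and Apoa4 to Zfp954 (0.0825 against 0.210). Apoa5 was nearest to Cd9 (0.0928 against 0.366), Apoa1 to Thrsp (0.102 against 0.348) and Mttp to Sdr42e1 (0.157 against 0.471). These are descriptions over libraries that share letters and treatments.

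Around these genes, 70 others of the lipoprotein pathway were listed and 65 were tested. With lipid alone 13 rose and 23 fell, and with lipid in the presence of itaconate 12 rose and 25 fell, beside 23.8% and 23.5% of all genes rising and 23.7% and 23.5% falling. Their median log2 fold change was -0.09 in both comparisons, against 0.00 over all genes. With itaconate alone 3 rose and 3 fell, beside 1.96% and 2.95% of all genes, and in lipid-treated cells 0 rose and 1 fell, beside 1.32% and 1.26%. These lists were chosen with earlier results of these data known.

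Among 6 other apolipoproteins tested, lipid lowered 2 and raised 0. Apof, the lipid transfer inhibitor protein, fell (log2 fold change -0.44, adjusted p = 5.52e-06, from 167 ± 14.2 to 124 ± 16.8 CPM), and Clu, the secreted chaperone clusterin, fell (-0.39, adjusted p = 3.71e-05). The lipoprotein lipase activator gene Apoc2 (-0.07, adjusted p = 0.515) and Apoc4 (-0.09, adjusted p = 0.391) did not pass. With lipid in the presence of itaconate 3 fell, Apof (-0.31), Clu (-0.23) and Apoh (-0.15, adjusted p = 0.035). Apoc2 (-0.21) and Apoc4 (-0.17) did not pass there. However, Apoc2 was called in 7 of 24 alternatives, among them DESeq2 (adjusted p = 0.0377) and no filter (adjusted p = 0.00876), and Apoc4 in 2. Apoh lost its call when itaconate replicate B (-0.14, adjusted p = 0.0804), C (-0.15, adjusted p = 0.0687) or D (-0.15, adjusted p = 0.068) was left out, or lipid + itaconate replicate C (-0.09, adjusted p = 0.129) or D (-0.13, adjusted p = 0.106). It was also lost without the replicate block (adjusted p = 0.104), with library totals (adjusted p = 0.101) and in the fit of 8 libraries (adjusted p = 0.0508).

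Of 17 genes of particle assembly and secretion, lipid raised 3 and lowered 8. Tm6sf2, a membrane protein needed for full lipidation of VLDL, rose from 4.24 ± 0.791 to 8.11 ± 2.28 CPM (log2 fold change 0.92, adjusted p = 4.93e-05). P4hb, protein disulfide isomerase and the other subunit of the transfer protein, fell (-0.30, SE 0.06, adjusted p = 0.00102), the opposite direction to Mttp. Apobec1, the deaminase that edits Apob mRNA, also fell (-0.43, adjusted p = 7.03e-06), as did Sort1, a sorting receptor (-0.48, adjusted p = 0.00722). With itaconate present 2 rose and 7 fell: Tm6sf2 (0.58) and Pla2g12b (0.30, adjusted p = 0.00889) rose, while P4hb (-0.29), Apobec1 (-0.51) and its cofactor A1cf (-0.53, adjusted p = 0.00235) were among those that fell. The Pla2g12b call was lost without the replicate block (0.29, adjusted p = 0.067).

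Of 11 genes of lipase action and remodelling, lipid raised 1 and lowered 4. Angptl8, a lipase inhibitor of the fed state, rose from 18.9 ± 4.58 to 43.1 ± 4.81 CPM (log2 fold change 1.22, adjusted p = 4.8e-05), whereas its fasting relative Angptl4 fell from 130.4 ± 10.5 to 64.7 ± 8.09 CPM (-1.02, adjusted p = 4.47e-08). Lpl, lipoprotein lipase, fell from 10.1 ± 2.87 to 5.47 ± 1.24 CPM (-0.88, adjusted p = 9.5e-06). Of the 8 macrophage markers tested, 5 fell in the same comparison, among them Adgre1 (-0.82), Cd5l (-0.81) and Marco (-0.76). Cd68, the most abundant of them, rose (0.43), while Csf1r (0.006, adjusted p = 0.982) and Clec4f (-0.09, adjusted p = 0.749) did not pass. Abca1, the cholesterol exporter that lipidates apolipoprotein A-I, fell (-0.28, adjusted p = 0.000563). Lcat, which esterifies cholesterol on HDL, did not pass (-0.12, adjusted p = 0.192), except in the fit of 8 libraries (adjusted p = 0.0442). With itaconate present 1 rose and 4 fell, with Angptl8 at 0.60 (adjusted p = 0.00877), Lpl at -1.35, Angptl4 at -0.85 and Abca1 at -0.36. Of the 8 macrophage markers 7 fell there, among them Adgre1 (-1.52), Marco (-1.20) and Cd5l (-0.77), while Cd68 rose (0.58). The part of macrophages in the Lpl values was not tested. The Angptl8 values in lipid + itaconate cells ran from 22.8 to 65.0 CPM, and its call was lost without the replicate block (adjusted p = 0.071).

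Of 10 receptor and uptake genes, lipid raised 3 and lowered 2. Sdc1, a heparan sulfate proteoglycan that binds remnants, rose (log2 fold change 0.42, adjusted p = 0.000189). Lrp1, a remnant receptor, did not pass with lipid alone (-0.16, adjusted p = 0.0785), though it was called without lipid replicate B (-0.25, adjusted p = 0.00792) and without lipid + itaconate replicate B (-0.16, adjusted p = 0.0479), with no filter (adjusted p = 0.0218) and in the fit of 8 libraries (adjusted p = 0.0332). With itaconate present 2 rose and 3 fell, with Sdc1 at 0.37 and Lrp1 called lower (-0.21, adjusted p = 0.0266). The Lrp1 call was lost in 6 of 24 alternatives: with library totals (adjusted p = 0.142), without itaconate replicate A (adjusted p = 0.0642), C (adjusted p = 0.086) or D (adjusted p = 0.0532), and without lipid + itaconate replicate A (adjusted p = 0.0796) or B (adjusted p = 0.0999).

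Of 21 transcriptional regulators, lipid raised 6 and lowered 7. Creb3l3, a liver transcription factor of triglyceride metabolism, rose from 103 ± 8.44 to 215 ± 21.6 CPM (log2 fold change 1.06, SE 0.04, adjusted p = 3.1e-11), and Foxo1, the insulin-regulated forkhead factor, rose (0.36, adjusted p = 0.00135). The sterol-responsive factors Srebf1 (-0.67, adjusted p = 1.31e-06) and Srebf2 (-0.47, adjusted p = 1.12e-05) and the adipogenic receptor Pparg (-0.86, adjusted p = 9.88e-06) fell. Hnf4a, a master regulator of hepatocyte genes, did not pass with lipid alone (0.11, adjusted p = 0.171) except with library totals (0.19, adjusted p = 0.0394). With itaconate present 7 rose and 8 fell, again with Creb3l3 higher (0.95, adjusted p = 2.74e-10) and Srebf1 (-0.55), Srebf2 (-0.30) and Pparg (-0.74) lower. Ppargc1a also fell there (-0.63, from 5.19 ± 0.359 CPM with itaconate to 3.34 ± 0.386 CPM with both) and was called in each of the 24 alternatives. Its means were 3.23 ± 0.341 CPM in untreated cells and 2.66 ± 0.538 CPM with lipid. The same itaconate libraries entered its rise with itaconate alone (0.69), so the 2 changes are not independent. Hnf4a was called higher there (0.21, adjusted p = 0.0143), though not without itaconate replicate B (0.18, adjusted p = 0.0593) or without the replicate block (0.20, adjusted p = 0.0751).

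**Figure D4:**
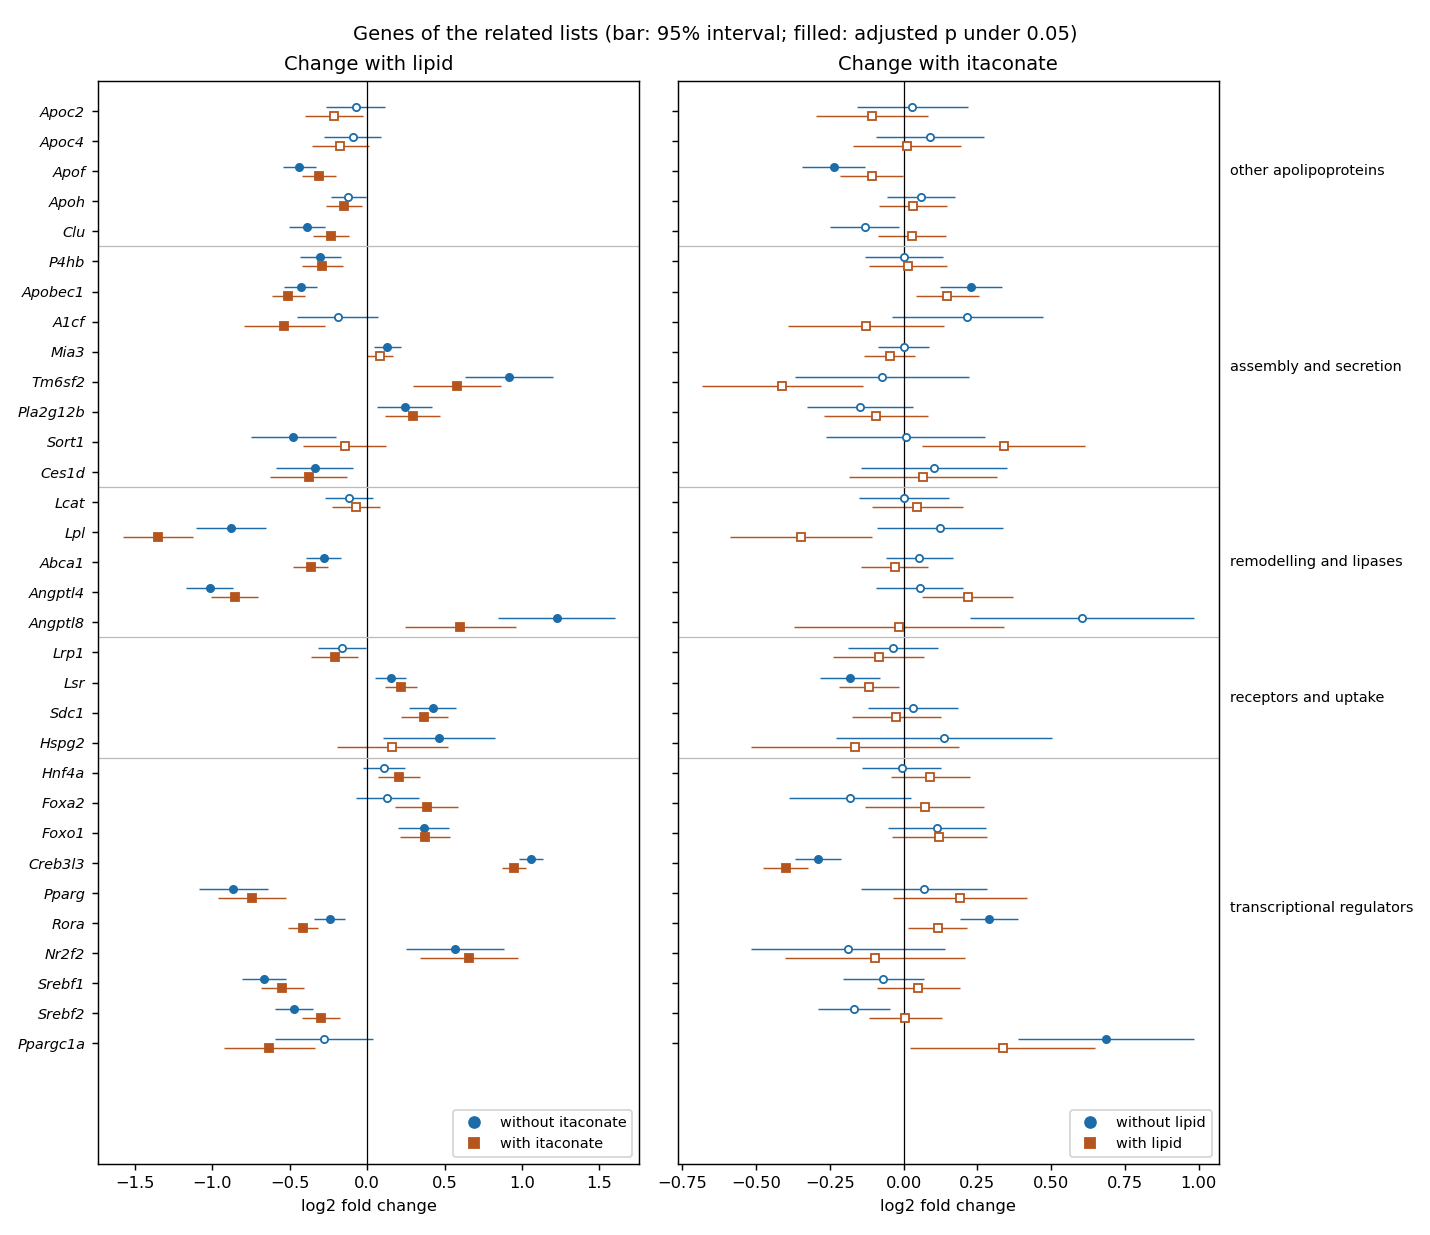
Log2 fold change with 95% intervals for genes of the 5 related lists; the left panel shows the change with lipid (circles without itaconate, squares with it) and the right panel the change with itaconate (circles without lipid, squares with it), filled where the adjusted p is under 0.05. Creb3l3 lies at 1.06 and 0.95 in the left panel and at -0.29 and -0.40 in the right panel.

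Creb3l3 was called lower with itaconate both without lipid (log2 fold change -0.29, SE 0.04, adjusted p = 0.000343) and with it (-0.40, SE 0.04, adjusted p = 6.77e-05), in 4 of 4 letters each time. Its means were 103 ± 8.44 CPM in untreated cells, 84.6 ± 9.00 with itaconate, 215 ± 21.6 with lipid and 163 ± 14.2 with both (SD, n = 4). Without the replicate block neither call held (adjusted p = 0.178 and 0.12). It was the 1 related gene called between lipid + itaconate and lipid. With itaconate alone Rora, a nuclear receptor (0.29, adjusted p = 0.00232), Ppargc1a, a coactivator of oxidative metabolism (0.69, adjusted p = 0.0121), and Apobec1 (0.23, adjusted p = 0.0152) rose, and Apof (-0.24, adjusted p = 0.0143) and Lsr, the lipolysis-stimulated receptor (-0.18, adjusted p = 0.0375), fell.

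The itaconate calls outside Creb3l3 and Rora depended on single libraries. Ppargc1a was not called without itaconate replicate C (0.67, adjusted p = 0.0587). Apobec1 was not called without untreated replicate A (0.21, adjusted p = 0.0671) or C (0.22, adjusted p = 0.0522), or without itaconate replicate C (0.18, adjusted p = 0.0909) or D (0.23, adjusted p = 0.0503), or with library totals (0.21, adjusted p = 0.0579). Apof was not called without untreated replicate C (-0.21, adjusted p = 0.0589) or D (-0.22, adjusted p = 0.0577), or without itaconate replicate C (-0.21, adjusted p = 0.0778) or D (-0.23, adjusted p = 0.054). Lsr was not called when any 1 of 9 libraries was left out, with adjusted p values from 0.0523 to 0.182, or with edgeR's own expression filter (adjusted p = 0.0537). Without the replicate block none of the 65 genes was called with itaconate alone, while 8 had an unadjusted p under 0.05. The share of all genes under that unadjusted threshold was not counted, so the 8 cannot be set against a background.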

How the data were processed

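Poly(A)-selected, strand-marking libraries were sequenced in bulk and, per the study's methods and the submitters' processing notes, the authors trimmed reads with cutadapt 1.18, aligned them to mm10 with STAR 2.7.0f and counted them with RSEM 1.3.1 on GENCODE. The deposited values are RSEM expected counts per gene (5.41% not whole), with no normalization. The authors also removed a batch that their methods do not name.

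Expected counts were rounded and analysed in R 4.3.3. A gene was kept if its mean reached 1 CPM. TMM scaling and edgeR 4.0.16's quasi-likelihood test were applied to all 16 libraries in a model of the group and the letter, with Benjamini-Hochberg adjustment over all 11675 genes (threshold 0.05). CPM are TMM-scaled. The pipeline was tested on simulated data, drawn with the same relative spread for every gene and no differences between letters. That test therefore does not cover the letter differences of these libraries. The letters were taken as a block because deviations from group means correlated for all 24 pairs of same-letter libraries (0.144 to 0.469, median 0.263). The median was -0.114 for other letters. Deviations from a group mean cancel within the group, so positive same-letter correlations push those of other letters down. That median is therefore not separate evidence for the block. No libraries of a group agreed within sampling noise (chi-square per gene of 9.14 to 131 in 24 pairs). Alternatives used RLE or library totals alone, other filters, no block, only 8 libraries, DESeq2 1.42.0, limma-trend (3.58.1) and the omission of each library.

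The 10 genes and the related lists were chosen with earlier results of these data known. Of each related list, the 3 largest rises and falls called in each comparison could be named, besides P4hb, Apobec1, Apoc2, Apoc4, Lcat, Abca1, Lrp1, Hnf4a and Creb3l3. A gene named for a comparison could also be given in another. The values of some genes that these rules name are not reported here. Markers were summed per library. All 55450 identifiers were found in GENCODE M21, which supplied positions and lengths. For the 10 genes, whose lowest count was 1574, counting precision was not limiting at this depth. Ppargc1a (3.23 CPM in untreated cells), Tm6sf2 (4.24 CPM) and Lpl (10.1 CPM) were lower, and the part of counting noise in their values was not tested.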

Additional observations from a re-analysis of the deposited data

Results flagged for a closer look

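Within the 40 sets of 4 values formed by the 10 genes and 4 groups, 2 sets held a value far from the other 3 by Dixon's criterion, which chance alone would give in about 1 of 20 sets. Apoa5 in untreated replicate A was high, at 111.501 CPM against 85.8 to 87.1 CPM in the other 3 libraries. Apoc3 in untreated replicate D was low, at 481.666 CPM against 539 to 545 CPM.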

How the results depend on the processing

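The rises of Mttp, Apoa5 and Apoa4 and the fall of Apoa2 kept their direction and stayed under an adjusted p of 0.05 in both lipid comparisons in each of the 24 alternatives run. The number of the 10 genes called with lipid ranged from 4 to 7, and from 5 (no replicate block) to 9 in the presence of itaconate. With itaconate alone 1 gene was called by DESeq2 and by the fit of 8 libraries, and 1 between lipid + itaconate and lipid with library totals, no filter or DESeq2. With no filter 1 was called for the interaction, where that fit called 231 of 25152 genes. Leaving out single libraries gave 0 to 1 of the 10 genes in each itaconate comparison. Of the related genes, with itaconate alone 0 were called without the block, 10 with no filter, 13 in the fit of 8 libraries and 2 to 8 without single libraries, against 6. Between lipid + itaconate and lipid the related counts were 0 without the block, 3 with no filter and 1 to 2 without single libraries, against 1, and the interaction gave 2 with no filter, against 0.

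Estimates near 0 changed sign, and none passed the threshold on the other side of 0. With library totals alone, Apob (0.037), Apoc3 (0.032), Apom (0.047) and Apoc2 (0.0065) were above 0 with lipid, Apoa1 (-0.018) and Mttp (-0.00072) below 0 with itaconate, and Apoc1 (-8.2e-05) and Apoc3 (-0.040) below 0 between lipid + itaconate and lipid. Without the replicate block, the interaction was above 0 for Apoa2 (0.0034) and Apoe (0.00034). Leaving out single libraries gave, with lipid, -0.094 to 0.012 for Apob, -0.084 to 0.017 for Apoc3, -0.079 to 0.024 for Apom and -0.136 to 0.0020 for Apoc2, and -0.159 to 0.023 for Lcat with itaconate present. With itaconate alone the ranges were -0.039 to 0.066 for Apoa1, -0.015 to 0.098 for Apoa5 and -0.012 to 0.043 for Mttp. Between lipid + itaconate and lipid they were -0.038 to 0.185 for Apoa1, -0.026 to 0.129 for Apoc1 and -0.034 to 0.085 for Apoc3. For the interaction they were -0.047 to 0.180 for Apoa1, -0.060 to 0.072 for Apoa2, -0.131 to 0.028 for Apoc1, -0.109 to 0.032 for Apoc3 and -0.054 to 0.056 for Apoe.

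Library totals alone changed the balance over all genes from 2779 higher and 2767 lower to 3871 and 1782 with lipid, from 2740 and 2743 to 3377 and 1992 with lipid in the presence of itaconate, from 229 and 344 to 130 and 324 with itaconate, and from 154 and 147 to 54 and 248 between lipid + itaconate and lipid. Over all genes, itaconate alone called 573, against 23 without the block, 1091 with no filter and 1865 in the fit of 8 libraries. Lipid + itaconate against lipid called 301, against 9 without the block, 725 with no filter, 13 in the fit of 8 libraries and 509 by DESeq2. The cause was not tested.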
